A study of Mus musculus with 18 samples.

Results

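The anterior pituitary glycoprotein hormones and the hypothalamic signals that drive them were followed through 7 genes, chosen by symbol from the 24054 genes measured in each tissue. Tshb, Lhb and Fshb encode the beta subunits of thyrotropin (TSH), luteinizing hormone and follicle-stimulating hormone, and Cga encodes the alpha subunit that all these hormones share. Trhr and Trhr2 encode receptors of thyrotropin-releasing hormone (TRH), and Gnrhr encodes the receptor of gonadotropin-releasing hormone. All 7 genes were present in the tables of the pituitary, the hypothalamus and the thyroid. RNA sequencing compared WT mice with THRB K146Q mice, homozygous for a whole-body knockin substitution that removes a sumoylation site of the thyroid hormone receptor beta. Both groups were untreated 3-month-old males of the strain labelled C57BL/Ntac, with 3 mice per genotype, and each tissue gave 3 libraries per genotype, 18 in all. In every tissue the WT libraries carry the mouse numbers 1, 2 and 43 and the K146Q libraries the numbers 60, 62 and 83.

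Thyrotrophs, the pituitary cells that make TSH, secrete it in response to TRH, and thyroid hormone acting through THRB represses Tshb, Cga and TRH itself. Gonadotrophs make the other beta subunits together with the same alpha subunit and respond to gonadotropin-releasing hormone through Gnrhr. A comparison of the members therefore sets genes of the thyroid axis (Tshb, Trhr) beside genes of the reproductive axis (Lhb, Fshb, Gnrhr), with Cga belonging to both.

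The libraries held 14902330 to 21230050 reads over all genes, and pituitary libraries held 16468854 to 20339233 reads. Levels are given as normalized CPM (reads of a gene multiplied by a factor that the authors' normalization set for each library), and 3 reads, used here as the detection floor, corresponded to 0.133 to 0.190 CPM. This floor covers counting error only. Among 15589 pituitary genes tested by limma on log2(CPM + 0.5), 1537 passed a Benjamini-Hochberg adjusted p of 0.05, of which 991 were higher and 546 lower in K146Q mice. With library totals taken without the 10 highest genes the pituitary split became 835 higher and 878 lower, and the median of all genes moved to -0.06 on the log2 scale. Markers of hypothalamic neurons summed to 430 to 655 CPM in the hypothalamus and 8.15 to 14.4 CPM in the pituitary. Thyroglobulin (Tg), the thyroid's hormone precursor, was read at 83869 CPM or more in every thyroid library and at 120 to 170 CPM in every pituitary and hypothalamus library. The level of Thrb does not check the genotype labels, because a base substitution cannot be read from gene levels.

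The sequences just upstream of the annotated start are shown for the members whose levels can be set beside a promoter, Tshb and Cga, which rose in the pituitary, and Fshb and Gnrhr, which did not pass the test. Sequences are from RefSeq (GRCm38.p6), read 5′ to 3′ on the strand of the gene, and end at the base before the first annotated exon. A promoter entry matched 5 of the 7 members, and the Lhb entry was not printed. Capitals mark matches, on either strand, to the TATA box TATAAA, the GATA motif AGATAA, the nuclear receptor hexamer AGGTCA or the cyclic AMP response core TGACGT.
Tshb, chr3:102782719-102782964, minus strand: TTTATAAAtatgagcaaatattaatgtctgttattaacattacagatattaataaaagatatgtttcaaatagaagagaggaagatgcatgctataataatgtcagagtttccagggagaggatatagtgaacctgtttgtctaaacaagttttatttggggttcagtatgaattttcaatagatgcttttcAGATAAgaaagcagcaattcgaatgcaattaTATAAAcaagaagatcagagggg
Cga, chr4:34893529-34893778, plus strand: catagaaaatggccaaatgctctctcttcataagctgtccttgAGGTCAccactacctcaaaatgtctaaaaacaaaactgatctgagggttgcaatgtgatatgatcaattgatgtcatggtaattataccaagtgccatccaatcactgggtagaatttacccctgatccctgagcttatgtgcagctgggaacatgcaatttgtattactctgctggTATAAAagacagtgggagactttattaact
Fshb, chr2:107059657-107059901, minus strand: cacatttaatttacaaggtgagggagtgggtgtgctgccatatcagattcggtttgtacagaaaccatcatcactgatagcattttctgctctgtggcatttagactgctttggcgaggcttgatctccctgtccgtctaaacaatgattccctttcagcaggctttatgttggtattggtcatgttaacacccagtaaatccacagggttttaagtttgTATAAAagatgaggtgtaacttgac
Gnrhr, chr5:86197902-86198151, minus strand: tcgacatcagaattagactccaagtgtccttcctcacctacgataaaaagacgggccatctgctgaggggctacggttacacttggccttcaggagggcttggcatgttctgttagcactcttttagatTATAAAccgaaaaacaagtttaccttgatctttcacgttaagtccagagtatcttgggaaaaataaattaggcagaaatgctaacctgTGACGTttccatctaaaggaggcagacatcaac
A TATAAA match lay 23 bases upstream of the exon in Tshb, 30 bases upstream in Cga and 25 bases upstream in Fshb, whereas the match in Gnrhr lay 121 bases upstream. In Tshb, a further pair of overlapping TATAAA matches on opposite strands opens the sequence, 246 and 244 bases upstream. The AGATAA match of Tshb lay 54 bases upstream, the AGGTCA match of Cga 207 bases upstream and the TGACGT match of Gnrhr 33 bases upstream. Neither the GATA motif TGATAA nor the POU-factor motif TATNCAT was found in these windows. Of 32851 mouse promoter windows in the same RefSeq table, TATAAA was found in 12.4%, AGATAA in 9.99%, TGATAA in 7.94%, AGGTCA in 14.0%, TGACGT in 6.47% and TATNCAT in 7.92%. These matches describe letters in the windows, and no factor binding was measured.

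In the pituitary, both genes of TSH and the TRH receptor were higher in K146Q mice, while both gonadotropin beta subunits and Gnrhr did not pass the test. Of the 6 members tested, 3 were called higher and 0 lower. Over all pituitary genes tested, 9.86% were called in either direction and 6.36% were called higher. In whole-gland RNA, more cells of a type and more RNA per cell cannot be told apart, nor can fewer cells and less RNA per cell.

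Tshb, the subunit that makes the hormone TSH, lies on GRCm38 chr3:102775465-102782718 on the minus strand, within the span of Tspan2 on the opposite strand. The normalized Tshb level was 539, 235 and 593 CPM in WT mice 1, 2 and 43, and 8183, 7166 and 5600 CPM in K146Q mice 60, 62 and 83. The lowest K146Q mouse was far above the highest WT mouse, and WT mouse 2 was the lowest of the 6. The means were 456 ± 193 CPM in WT mice and 6983 ± 1301 CPM in K146Q mice (SD, n = 3 each), a 15.3-fold difference. The log2 fold change was 4.03 (SE 0.30, 95% interval 3.35 to 4.71, limma adjusted p = 9.24e-05). An exact two-sided permutation test gave p = 0.1, the smallest p that 3 mice against 3 allow.

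Cga, on chr4:34893779-34907370 (plus strand, with Platr9 on the opposite strand), was the most abundant member in both genotypes. Its level was 3340, 3157 and 4007 CPM in WT mice 1, 2 and 43, and 20723, 19367 and 16205 CPM in K146Q mice 60, 62 and 83. The groups did not overlap, and the order of the K146Q mice (60, then 62, then 83) was the same as for Tshb. Mean levels were 3501 ± 447 and 18765 ± 2318 CPM (SD, n = 3 each), a 5.36-fold difference and a log2 fold change of 2.42 (SE 0.14, limma adjusted p = 3.65e-05). With no filter on low values the same fold change had a limma adjusted p of 0.826, and all other settings kept the call.

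Lhb (chr7:45420820-45421897, plus strand, overlapped by Ruvbl2 on the opposite strand) was nearly equal in both genotypes. It measured 727, 807 and 612 CPM in the WT mice and 723, 690 and 708 CPM in the K146Q mice, so that every K146Q value lay inside the WT range. The log2 difference was -0.0083 (SE 0.10), with a 95% interval of -0.23 to 0.21 (limma adjusted p = 0.973). The interval does not reach the changes fitted for Tshb or Cga.

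Fshb (chr2:107056140-107059656, minus strand, with no overlapping gene) was measured at 606, 760 and 504 CPM in the WT mice and 640, 673 and 794 CPM in the K146Q mice. The ranges overlapped, with K146Q mouse 83 the highest of all and WT mouse 43 the lowest. The log2 difference was 0.19 (SE 0.14, 95% interval -0.13 to 0.50, limma adjusted p = 0.456). Whether either gonadotropin subunit differed by less than these intervals was not detectable with 3 mice per genotype.

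Trhr, the G protein-coupled receptor through which TRH acts on thyrotrophs, lies on chr15:44196135-44235912 on the plus strand. Its pituitary level was 13.6, 5.72 and 8.20 CPM in WT mice 1, 2 and 43, and 71.1, 59.9 and 53.2 CPM in K146Q mice 60, 62 and 83. The groups did not overlap, and mouse 2 was again the lowest of the WT mice and mouse 60 the highest of the K146Q mice. The means were 9.16 ± 4.01 and 61.4 ± 9.06 CPM (SD, n = 3 each), a 6.70-fold difference. The log2 fold change was 2.75 (SE 0.25, limma adjusted p = 0.000228).

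Gnrhr (chr5:86180754-86197901, minus strand), the receptor that marks gonadotrophs, measured 47.5, 55.5 and 40.7 CPM in the WT mice and 33.8, 40.3 and 47.2 CPM in the K146Q mice. The groups overlapped, and the log2 difference of -0.24 (SE 0.14, 95% interval -0.56 to 0.07) did not pass the test (limma adjusted p = 0.319). Trhr2 (chr8:122356967-122360746, minus strand, with Gm20388 on the opposite strand) had 0 reads in all 6 pituitary libraries, which allows a level of up to 0.133 to 0.172 CPM.

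**Figure D1:**
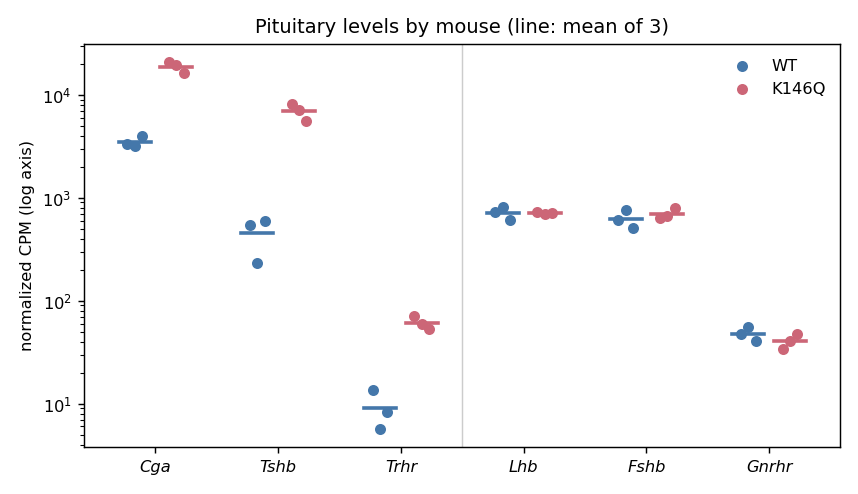
Normalized CPM (log axis) of 6 members in each pituitary library, with WT mice in blue, K146Q mice in red and a line at the mean of 3 mice. Cga, Tshb and Trhr separate by genotype without overlap, and Lhb, Fshb and Gnrhr overlap.

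Ratios within a library compare members without depending on the library total. Tshb over Lhb was 0.742, 0.291 and 0.970 in WT mice 1, 2 and 43 and 11.3, 10.4 and 7.91 in K146Q mice 60, 62 and 83. The lowest K146Q ratio lay far above the highest WT ratio. The log2 ratio differed by 4.04 ± 0.55 (SE, n = 3 each). Against Fshb the Tshb ratio differed by 3.85 ± 0.64.

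Cga over Lhb was 4.60, 3.91 and 6.55 in the WT mice and 28.7, 28.1 and 22.9 in the K146Q mice, a log2 difference of 2.43 ± 0.24 (SE), and Cga over Fshb differed by 2.24 ± 0.34. The ratio of Tshb to Cga was 0.161, 0.0743 and 0.148 in the WT mice and 0.395, 0.370 and 0.346 in the K146Q mice, a log2 difference of 1.61 ± 0.36, so that the beta subunit was the more changed of the pair. The receptor ratio Trhr over Gnrhr moved the same way, from 0.286, 0.103 and 0.201 to 2.1, 1.49 and 1.13, without overlap. Lhb over Fshb was the exception, with 1.2, 1.06 and 1.21 against 1.13, 1.03 and 0.891, overlapping ranges and a log2 difference of -0.19 ± 0.12. For the 6 ratios without overlap the exact permutation p was 0.1 and the Benjamini-Hochberg value over 7 ratios 0.117, so that this design could not reach 0.05, and for Lhb over Fshb the exact p was 0.2.

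**Figure D2:**
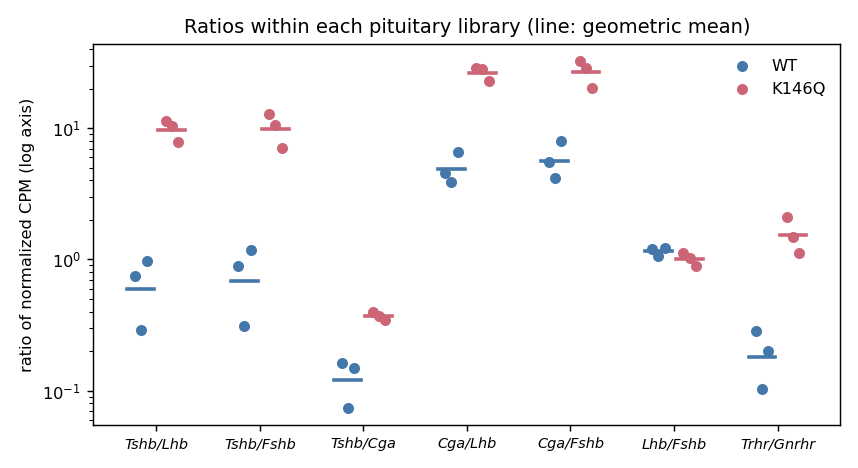
Ratios of normalized CPM (log axis) for 7 gene pairs within each pituitary library, with WT mice in blue, K146Q mice in red and a line at the geometric mean. The genotypes separate for 6 pairs and overlap for Lhb/Fshb, where values stay between 0.891 and 1.21.

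Levels of different genes were compared per kilobase of transcript (CPM per kb, longest coding transcript in GENCODE M21). In WT pituitaries the order was Cga (5097 ± 651 CPM per kb), Lhb (1055 ± 145), Tshb (753 ± 320), Fshb (390 ± 80.3), Gnrhr (21.1) and Trhr (2.54). Lhb lay above Fshb in every WT mouse, but the place of Tshb relative to them was not fixed beyond its spread. Tshb ranged from 388 to 981 CPM per kb and overlapped both Lhb (902 to 1190) and Fshb (315 to 475), and it was above Lhb in WT mouse 43 and below Fshb in WT mouse 2. In K146Q pituitaries Tshb moved to the second place at 11542 ± 2151 CPM per kb, behind Cga at 27315 ± 3374 and ahead of Lhb at 1042 ± 24.3. Gnrhr (17.8 ± 2.96 CPM per kb) and Trhr (17 ± 2.51) overlapped there.

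Each hormone pairs an alpha with a beta subunit, so the per-kilobase level of Cga was set against the sum of the 3 beta genes, a comparison added after the data were seen. The ratio was 2.08, 2.24 and 2.65 in the WT mice and 2.01, 2.12 and 2.18 in the K146Q mice. The ranges overlapped, and the means of 2.32 ± 0.297 and 2.11 ± 0.0875 (SD, n = 3 each) did not separate by an exact permutation test (p = 0.3). Transcripts of the alpha subunit thus exceeded those of the beta subunits in every pituitary of both genotypes. The makeup of the beta sum did differ, with Tshb making up 38.0%, 18.9% and 44.6% of it in the WT mice and 90.2%, 89.2% and 85.7% in the K146Q mice. The groups of shares did not overlap (exact permutation p = 0.1).

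Genes that mark thyrotrophs and gonadotrophs were counted beside the members. Of 8 thyrotroph markers, 7 were tested and 6 were higher, with a median log2 difference of 2.42 against -0.0088 over all genes tested. Without the members, 3 of 4 tested markers were higher, beside 6.36% of all pituitary genes tested. The lists were chosen with earlier results of these data known, so this count is a description. Dio2, which encodes the deiodinase that makes active thyroid hormone within thyrotrophs, measured 156, 87.6 and 103 CPM in the WT mice and 944, 877 and 704 CPM in the K146Q mice (log2 difference 2.90, SE 0.19, limma adjusted p = 5.79e-05). Gata2, a transcription factor of Tshb and Cga, differed by 0.92 and Thrb by 0.65 on the log2 scale, both called. Pou1f1, which thyrotrophs share with somatotrophs and lactotrophs, differed by -0.18 and was not called.

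Of 8 gonadotroph markers tested, 2 were higher (Foxl2 and Cga, which thyrotrophs share), 6 were not called and the median was 0.04. Without the members, 1 of 4 tested markers was higher, beside 6.36% of all pituitary genes tested. Foxl2, a forkhead factor of Fshb and Cga transcription, measured 30.1, 37.2 and 19.3 CPM in the WT mice and 58.9, 54.5 and 47.8 CPM in the K146Q mice (log2 difference 0.93, SE 0.20, limma adjusted p = 0.0189). Its call was lost in 2 of 6 fits that left out a mouse. Nr5a1, the steroidogenic factor that marks gonadotrophs, lay between 37.1 and 44.9 CPM in the WT mice and between 41.9 and 47.0 CPM in the K146Q mice.

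Among markers of the other anterior pituitary cells, 9 were tested, 2 were lower and 0 were higher: Prl, the lactotroph hormone prolactin, fell by 1.65 on the log2 scale and Ghrhr, the somatotroph receptor of growth hormone-releasing hormone, fell by 0.48. The summed level of these 9 genes was 129013 to 251746 CPM in the WT mice and 80521 to 92645 CPM in the K146Q mice, and most of it came from Gh. Gh itself ranged from 97779 to 213048 CPM in the WT mice and from 62503 to 75385 CPM in the K146Q mice, without overlap. It was not called by limma (log2 difference -0.97, adjusted p = 0.0737) and was called lower by edgeR (-1.04, adjusted p = 0.0249) and DESeq2 (adjusted p = 0.0363). The part of this difference in the member results was not tested. With totals taken without the 10 highest genes, the log2 difference was 3.97 for Tshb, 2.36 for Cga and -0.065 for Lhb. None of the 5 markers of stem and folliculostellate cells was called, and 2 of 6 blood, vessel and immune markers were higher (Pecam1 by 0.45 and Ptprc by 0.93 on the log2 scale). The Ptprc call held in 3 of 6 fits that left out a mouse, and those of Pecam1 and Ghrhr in 5 of 6. No called gene was found among the 3 tested hypothalamic neuron markers or the 4 tested thyroid follicular markers.

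Both releasing-hormone receptors signal through Gq and phospholipase C. Of 15 genes of that pathway tested in the pituitary, 5 were higher, 1 was lower and the median was 0.06. Rgs4, a regulator that shortens Gq signalling, differed by 1.21 and Plcb1, a phospholipase C beta, by 0.98 on the log2 scale. Prkcb (0.44), Gnaq (0.34) and Prkca (0.33), which encode protein kinase C isoforms and the Gq alpha subunit, were also called higher, and Plcb4 fell by 0.44. The calls of Gnaq and Prkca held in 1 of 6 fits that left out a mouse, that of Plcb4 held in 2 of 6, and those of Plcb1, Prkcb and Rgs4 in all 6.

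Activin and inhibin regulate Fshb. Of 12 genes of that system tested, 1 was called, the inhibin beta B gene Inhbb, which was higher by 0.30 (limma adjusted p = 0.0454) and lost its call in all 6 fits that left out a mouse. Among 22 transcription factors and cofactors of the subunit genes, 5 were higher (Gata2, Foxl2, Thrb, Isl1 and Rxrg), and the median was 0.02. Isl1, a LIM factor, measured 9.92 to 12 CPM in the WT mice and 15.5 to 22.1 CPM in the K146Q mice, and its call held in 5 of 6 such fits. Lhx3, another LIM factor of Cga and Fshb, was lower, at 100 to 127 CPM in the WT mice and 78.1 to 86.5 CPM in the K146Q mice, a call that held in 3 of 6 fits that left out a mouse. Of 3 tested hypothalamic ligands and inputs, Pdyn, the prodynorphin gene, was called higher by 0.87. Tshr (the TSH receptor) and Gpha2 (an alpha-like subunit of thyrostimulin), the tested genes of their lists, were not called at 0.32 and 0.30.

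The hypothalamus was sampled to ask whether the releasing hormones and their receptors differ upstream of the pituitary. None of the 6 members tested there was called. Of 15761 hypothalamus genes, 0% were called by limma (0 genes, with 645 at an unadjusted p under 0.05), edgeR called 0 and DESeq2 11. Trhr measured 8.35, 8.21 and 8.24 CPM in the WT mice and 7.73, 6.50 and 8.28 CPM in the K146Q mice (log2 difference -0.14). Trhr2, which was not detected in the pituitary, measured 2.92, 3.12 and 1.97 CPM in the WT mice and 3.14, 3.45 and 2.64 CPM in the K146Q mice (0.19). Per kilobase, Trhr and Trhr2 were at a like level in the WT hypothalamus, with means of 2.29 and 1.99 CPM per kb and overlapping ranges. Gnrhr had 0 to 3 reads per library and was not tested.

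None of 9 hypothalamic ligands and inputs was called. Trh, the TRH precursor, measured 45.3 to 56.2 CPM in the WT mice and 39.8 to 51.0 CPM in the K146Q mice, with a log2 difference of -0.09 (95% interval -0.32 to 0.14). Gnrh1 measured 0.751 to 1.13 CPM and 0.362 to 1.51 CPM.

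Transcripts of all 4 subunits were detected at low levels in the hypothalamus. Tshb measured 3.04, 3.53 and 3.48 CPM in the WT mice and 5.31, 2.55 and 8.23 CPM in the K146Q mice. Cga measured 9.01, 8.84 and 8.47 CPM in the WT mice and 15.5, 7.40 and 21.1 CPM in the K146Q mice. For both genes K146Q mouse 83 was the highest and K146Q mouse 62 the lowest, so that the K146Q values spread on each side of the WT values. Lhb lay between 1.03 and 1.45 CPM and Fshb between 0.405 and 1.21 CPM over the 6 libraries. These subunit levels were 0.0365% to 0.774% of the pituitary mean of the same genotype. Gh, a gene of pituitary somatotrophs, was found in the same libraries at 81.9 to 113 CPM, 0.0574% to 0.159% of its pituitary mean.

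The thyroid, the target of TSH, was the tissue with most called genes (5739 of 15200, 37.8%, of which 2992 or 19.7% were higher). With totals taken without the 10 highest genes the thyroid calls were 2494 higher and 3610 lower, and the median of all genes moved to -0.12 on the log2 scale. Trhr was higher in the K146Q thyroids, with 5, 4 and 1 reads in the WT libraries (0.316, 0.253 and 0.0601 CPM) and 64, 43 and 58 reads in the K146Q libraries (3.17, 2.53 and 3.40 CPM). The groups did not overlap, and the ratio of the mean levels was 14.5. The gene passed the filter on low values only through the K146Q libraries, so the test after that filter is not used as support for it. With no filter, the log2(CPM + 0.5) difference was 2.33, which the pseudocount of 0.5 lowers, and the limma adjusted p was 0.00519. The thyroid level of Trhr in K146Q mice was 4.12% to 5.54% of the K146Q pituitary mean.

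The TSH receptor Tshr, through which TSH acts on follicular cells, measured 284, 203 and 271 CPM in the WT thyroids and 490, 525 and 552 CPM in the K146Q thyroids (log2 difference 1.06, SE 0.14, limma adjusted p = 0.00114). Pgpep1, a peptidase that can cleave TRH, differed by 1.21 and Thrb by -1.33, both called. Trhr2 had 0 reads in each WT thyroid library and 1, 1 and 12 reads in K146Q mice 60, 62 and 83, so that a single mouse gave 12 of the 14 reads, and it was not tested. Gnrhr had 0 to 3 reads.

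The 4 subunits were not called in the thyroid, and the WT library of mouse 1 stood apart from the others. Tshb measured 35.9, 4.56 and 3.31 CPM in WT mice 1, 2 and 43 and 1.88, 3.58 and 5.69 CPM in the K146Q mice. Cga measured 95.9, 14.8 and 8.06 CPM in the WT mice and 7.83, 9.99 and 16.1 CPM in the K146Q mice. Mouse 1 was highest for both, while the other WT mice overlapped the K146Q mice. Lhb (3.73 CPM) and Fshb (3.6 CPM) were also highest in that library, and so were Gh (365 CPM against 99.6 and 125 CPM in the other WT mice), Prl (44.6 against 15.9 and 18.8) and Pomc (52.4 against 9.30 and 9.68). The log2 difference of Tshb was -1.18 (SE 0.81, limma adjusted p = 0.287), and -0.16 without that library. That of Cga was -1.04 and -0.017 without it. That of Lhb was -0.60 and -0.017 without it, and that of Fshb was -0.48 and turned to 0.16 without it.

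**Figure D3:**
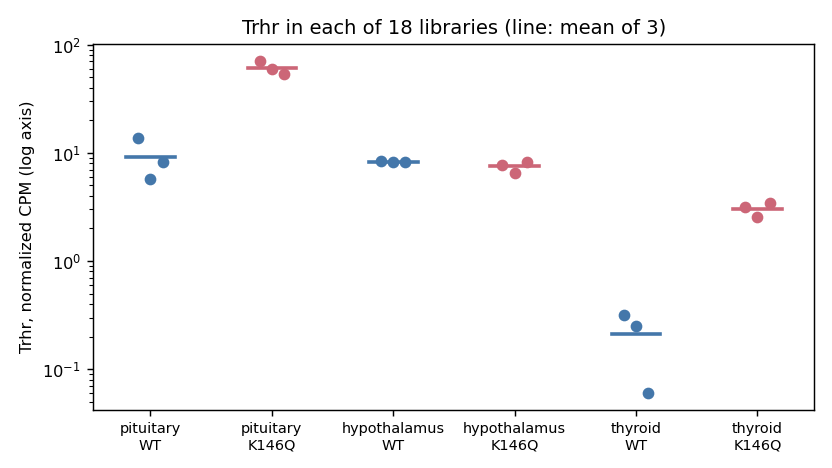
Trhr level in each of 18 libraries, in normalized CPM on a log axis, by tissue and genotype, with a line at the mean of 3 mice. The K146Q mice lie above the WT mice in the pituitary and in the thyroid, where the WT libraries hold 1 to 5 reads, and overlap them in the hypothalamus.

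Whether the genotype difference itself differed between tissues was tested in a limma fit of all 18 libraries. That fit took a single spread per gene over all tissues, so the thyroid libraries also set the SE of the comparison with the hypothalamus. Against the hypothalamus, 555 of 17140 genes (3.24%) were called, and against the thyroid 5790 (33.8%). The Tshb difference was larger in the pituitary than in the hypothalamus by 3.55 on the log2 scale (SE 0.88, limma adjusted p = 0.0348) and larger than in the thyroid by 5.21 (adjusted p = 0.000244). The first of these lost its call without WT mouse 2 or without any K146Q mouse (3.09 to 4.05, limma adjusted p = 0.0526 to 0.228). Trhr differed between pituitary and hypothalamus by 2.89 (SE 0.32, limma adjusted p = 5.42e-05) but not between pituitary and thyroid, where the value was 0.42 (95% interval -0.25 to 1.10, adjusted p = 0.336). That value depends on the pseudocount and was -0.63 at 0.1 and 0.94 (adjusted p = 0.0177) at 1. Cga differed from the thyroid by 3.46 (limma adjusted p = 0.00378), and its difference from the hypothalamus of 1.83 (SE 0.82) was not called (adjusted p = 0.306). In fits of each tissue alone the 95% intervals of Cga were 2.12 to 2.73 in the pituitary and -0.039 to 1.22 in the hypothalamus. Without WT mouse 1, whose thyroid library stood apart, the differences from the thyroid were 4.37 for Tshb and 2.41 for Cga, both still called. Lhb, Fshb, Trhr2 and Gnrhr were called in neither test. With 0 pituitary reads, the Trhr2 values only mirror the difference in the other tissue. Gnrhr had 0 to 3 reads per library outside the pituitary, so these tests could show little for either gene.

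**Figure D4:**
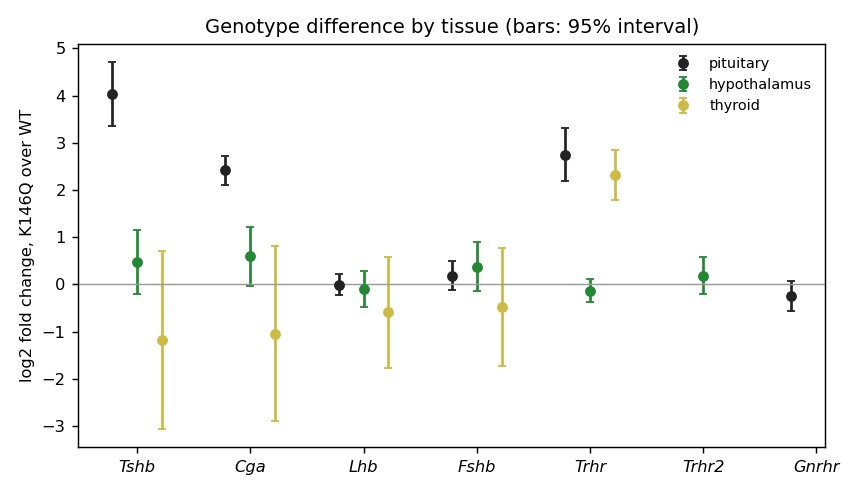
Log2 fold change (K146Q over WT) of each member in the tissues where it was tested, with bars for the 95% interval of the limma fit, 3 mice per genotype. The pituitary intervals of Tshb, Cga and Trhr lie above 0, and so does the thyroid interval of Trhr, a gene that passed the thyroid filter only through the K146Q libraries.

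The ratio of Tshb to Cga separated the pituitaries by genotype but not the other tissues. Over the 12 hypothalamus and thyroid libraries it lay between 0.241 and 0.411 with a median of 0.356. The WT hypothalamus libraries (0.338 to 0.411) and WT thyroid libraries (0.308 to 0.410) therefore lay above all 3 WT pituitaries (0.0743 to 0.161) and over the range of the K146Q pituitaries (0.346 to 0.395). The ratio summed over all 6 pituitary libraries was 0.334. These low-level ratios rest on 38 to 568 Tshb reads per library, and where the transcripts came from was not tested.

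**Figure D5:**
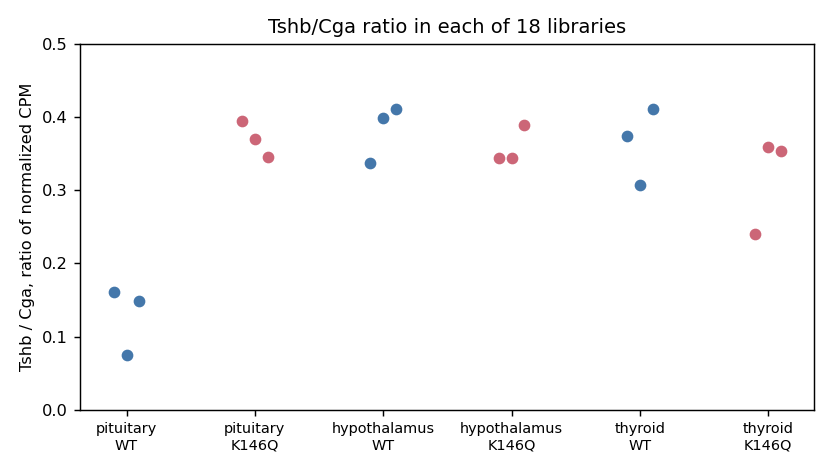
Ratio of Tshb to Cga (normalized CPM, linear axis from 0) in each of 18 libraries, by tissue and genotype, with WT in blue and K146Q in red. The 3 WT pituitaries lie at 0.0743 to 0.161, below the other 15 libraries.

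The genes whose pattern was most like each member were found by Pearson correlation of log2 levels over the 18 libraries, among 10484 genes, as a description. The points share tissues and library totals, so a high value mostly follows the difference between tissues. For Tshb the leading genes were Cga (r = 0.990), Dio2 (0.978), Glt8d1 (0.975), Fam122b (0.973) and Chuk (0.968). For Lhb they were Fshb (0.997), Pou1f1 (0.996), Lhx3 (0.996), Pomc (0.995) and Gnrhr (0.995). Fshb and Gnrhr likewise had Lhb and Pou1f1 among their nearest genes.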

How the data were processed

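RNA sequencing was done on pituitary, hypothalamus and thyroid of 3 WT and 3 K146Q mice. The authors deposited normalized CPM per gene (a scaled count signal), made per the labels' processing notes with bcl2fastq 2.17, Bowtie2 2.1.0 and RSEM 1.2.15 on mm10, with no role or order given there. The strand used for counting is not given in the sources used here, so overlapping opposite-strand genes are a limit. Deposited columns of fold changes and p-values were not used. Whole reads were recovered for 100% of 432972 values (tolerance 0.1), and 24027 genes were joined across tissues.

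Each tissue was fitted with limma 3.58.1 (R 4.3.3, variance trend) on log2(CPM + 0.5), over genes with at least 0.5 CPM in 3 libraries, with p-values adjusted by Benjamini-Hochberg and called under 0.05. The planned unit was CPM. Alternatives were edgeR 4.0.16 and DESeq2 1.42.0 on recovered reads, other pseudocounts, filters, scalings, no variance trend, and leaving out each mouse. Genotype effects were compared between tissues over 18 libraries. The same 6 numbers recur in each tissue and the design text speaks of tissues from 3 mice per genotype. That same-numbered libraries came from the same animal was inferred from this and is not stated outright, and the number was taken as a block in an alternative. Deviations of same-numbered libraries correlated at -0.082 to 0.24, over 0.1 in 8 of 18 pairs. On simulated pituitary data limma recovered 97.5% of 200 changed genes among 15629, with 6.25% false calls. The limma fit that compared tissues recovered fewer on such data, 80% of 200 changed genes among 16739, with 5.33% false calls. Of the genes given the smaller fold change, that fit recovered 61.2%. The simulation gave every gene the same relative spread between libraries beyond counting error, and no effect of mouse. Changed genes were drawn only from those with many reads. These rates therefore do not give the power for the members in these mice. Recovery at low read numbers was not tested separately. Nothing states that the mice were from separate litters, and p-values measure the spread between these mice.

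The members and gene lists (lists of cell markers, Gq signalling, activin and inhibin, transcription factors, ligands and receptors) were chosen with earlier results of these data known. The plan named all members and, in each list, the genes called in the pituitary or, where none was, those of highest mean level. Other uncalled genes were named as well, and some lists without a call have no gene named for the pituitary. Positions are from GENCODE M21 (GRCm38). A result for a gene of the transcription factor list is not reported here.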

Additional observations from a re-analysis of the deposited data

Results flagged for a closer look

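The genotype difference of 2 members differed between pituitary and hypothalamus by a limma test of the difference itself, by 3.55 on the log2 scale for Tshb and 2.89 for Trhr. Between pituitary and thyroid it differed by 5.21 for Tshb and 3.46 for Cga, in each case with the larger difference in the pituitary. Against the hypothalamus, the Tshb call was lost in 8 alternative fits and kept in 7. The hypothalamus libraries held only 51 to 153 Tshb reads each.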

How the results depend on the processing

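The pituitary calls of Tshb, Cga and Trhr kept their direction in every alternative, and the only one lost was that of Cga with no filter. Among alternatives that kept all mice, the highest limma adjusted p was 0.0451 for Tshb and 0.0498 for Trhr, both near the threshold. Leaving out each mouse in turn gave 3.61 to 4.28 for Tshb, 2.35 to 2.52 for Cga and 2.47 to 3.06 for Trhr, called in 6 of 6 fits. The number of pituitary genes called was 291 with no filter and 625 to 1345 when a mouse was left out. The thyroid count was then 3602 to 5106 and the hypothalamus count 0 to 6, with 11 by DESeq2 and 12 with no filter. Genes differing between pituitary and hypothalamus numbered 343 with at least 1 CPM in every library and 228 to 446 without a mouse, and between pituitary and thyroid 4027 to 5457 without a mouse.

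With the replicate block (mouse) the between-tissue counts were 576 and 5955, and the block changed no other call of a member. The Tshb difference from the hypothalamus lost its call at a pseudocount of 0.1 (adjusted p = 0.0572 by limma), with no filter (0.112), with quantile normalization (0.18) and with no variance trend (0.0578).

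Uncalled differences near 0 turned sign. Lhb in the pituitary ranged from -0.12 to 0.083 and Fshb in the thyroid from -0.87 to 0.16 when a mouse was left out. With all mice kept, the other settings gave -0.23 to -0.0060 for Lhb in the pituitary, never called. Between pituitary and hypothalamus, Lhb was -0.11 with quantile normalization and -0.053 to 0.19 without a mouse, Fshb was -0.35 to 0.070, and Gnrhr was 0.032 at a pseudocount of 0.1 and -0.40 to 0.033. Between pituitary and thyroid, a pseudocount of 0.1 gave -0.63 for Trhr and 0.35 for Gnrhr, and Gnrhr was -0.25 to 0.079 without a mouse. The cause was not tested. Thyroid Trhr could not be fitted without a K146Q mouse, because it then failed the filter. Low read numbers limit Gnrhr and Trhr2 outside the pituitary and hypothalamus respectively.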
